A study of Mus musculus with 24 samples.

Results

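The Asxl family and the BAP1 complex were followed as 10 genes in bulk RNA sequencing of mouse brain: Asxl1, Asxl2, Asxl3, Bap1, Foxk1, Foxk2, Hcfc1, Ogt, Mbd5 and Mbd6. They were taken by symbol from the deposited table of 40836 genes, and all 10 were among the 20437 genes that passed the filter on low counts. Each was read in all 24 libraries, with 394 to 20371 counts per gene and library.

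BAP1 is a nuclear deubiquitinase that removes ubiquitin from histone H2A, opposing the Polycomb complex PRC1, which puts it there. It is active only when bound to an ASXL protein, and Asxl1, Asxl2 and Asxl3 encode alternative partners for the same place in the complex. The forkhead factors FOXK1 and FOXK2 bring the complex to DNA, HCF-1 (Hcfc1) is a large scaffold bound by BAP1, the enzyme OGT attaches O-linked N-acetylglucosamine to proteins and also processes HCF-1, and MBD5 and MBD6 are methyl-CpG-binding domain proteins that join the complex. In humans, variants that inactivate ASXL1, ASXL3 or MBD5 cause neurodevelopmental disorders, and ASXL1 is a frequent target of mutation in blood malignancies.

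Polyadenylated RNA was measured in 6 groups of 4 libraries, named in the labels by an E code and a time code: E4-05, E4-10, E4-15, E3-05, E3-10 and E3-15. The series title concerns ApoE4, microglial lipids and an axis of AsxL1 with the liver X receptor, so that E4 against E3 was taken as the study's question, but the labels spell out neither code. They give no genotype, strain, age or treatment beyond the codes, and the only tissue term is brain. The titles speak of biological replicates and name 6 months, and nothing states that libraries came from separate animals, so that the p-values cover the variation among the libraries, which may be technical.

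Total counts ran from 37.4 to 99.5 M counts per library, with a median of 48.8 M (M, mega). Neuronal, astrocytic and oligodendrocytic marker genes were present in every library, as the label brain implies, but brain regions differed. The 8 libraries whose column number in the count table is a multiple of 3 (E4-05 3, E4-10 2, E4-15 1, E4-15 4, E3-05 2, E3-10 1, E3-10 4 and E3-15 3) averaged 6.24 to 7.37 log2 CPM over 12 cerebellum and hindbrain genes, against -0.06 to 1.94 in the other 16. CPM is the count of a gene per mega of counts in its library, scaled by TMM factors. Over 11 telencephalon genes the order was opposite, at 1.40 to 3.31 log2 CPM in the 8 and 4.81 to 6.77 in the other 16. Gabra6, the GABA receptor subunit typical of granule cells in the cerebellum, lay at 85.5 to 533 CPM in the 8 and at 0 to 4.63 CPM in the others. The 8 are called hindbrain-rich, and since they fall unevenly on the groups, all group comparisons were fitted with a term for them. In 2 libraries, Gh, the growth hormone of the pituitary, exceeded 1000 CPM, and in 3 the haemoglobin gene Hbb-bs exceeded 100 CPM.

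Promoter windows of 250 bases before to 50 bases after the annotated start are printed for Asxl1 with Asxl2 and for Mbd5 with Mbd6, 2 pairs of related genes that went in opposite directions between the hindbrain-rich and the other libraries. Asxl3, which also went opposite to Asxl2, had no entry. Sequences and positions are from RefSeq on GRCm38.p6, 5′ to 3′ on the gene's strand. The count table itself was made on another mouse build. Capitals mark matches, on either strand and with overlaps allowed, to 7 sets of letters: GTAAACA (forkhead), ACTACAA (the core bound by ZNF143 and THAP11, a partner of HCF-1), AAGATGG (YY1), CCGGAAG (ETS), GGGCGG (GC box), TGACGTCA (CRE) and CCAAT. Asxl1 (chr2:153345580-153345879, plus strand) and Asxl2 (chr12:3426607-3426906, plus strand) came first, followed by Mbd5 (chr2:48949258-48949557, plus strand) and Mbd6 (chr10:127288969-127289268, minus strand), each with the more upstream of its 2 annotated windows.
Asxl1: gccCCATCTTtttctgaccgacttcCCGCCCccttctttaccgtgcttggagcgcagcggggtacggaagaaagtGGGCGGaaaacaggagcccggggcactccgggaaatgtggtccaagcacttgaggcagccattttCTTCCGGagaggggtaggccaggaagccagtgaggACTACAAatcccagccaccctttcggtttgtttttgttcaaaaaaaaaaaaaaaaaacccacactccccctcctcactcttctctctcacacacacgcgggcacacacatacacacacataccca
Asxl2: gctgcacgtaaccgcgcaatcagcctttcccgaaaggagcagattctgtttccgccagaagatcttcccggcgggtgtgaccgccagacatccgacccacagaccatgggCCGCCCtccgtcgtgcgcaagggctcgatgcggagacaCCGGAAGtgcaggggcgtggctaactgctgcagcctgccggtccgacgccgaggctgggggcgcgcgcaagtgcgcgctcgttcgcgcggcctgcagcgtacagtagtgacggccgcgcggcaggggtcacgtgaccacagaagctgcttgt
Mbd5: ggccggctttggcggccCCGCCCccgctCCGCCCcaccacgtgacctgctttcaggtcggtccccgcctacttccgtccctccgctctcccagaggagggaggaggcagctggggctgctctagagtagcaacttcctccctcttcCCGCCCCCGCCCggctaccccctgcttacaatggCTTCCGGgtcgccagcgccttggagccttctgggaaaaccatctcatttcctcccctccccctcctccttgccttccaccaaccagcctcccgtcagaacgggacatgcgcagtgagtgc
Mbd6: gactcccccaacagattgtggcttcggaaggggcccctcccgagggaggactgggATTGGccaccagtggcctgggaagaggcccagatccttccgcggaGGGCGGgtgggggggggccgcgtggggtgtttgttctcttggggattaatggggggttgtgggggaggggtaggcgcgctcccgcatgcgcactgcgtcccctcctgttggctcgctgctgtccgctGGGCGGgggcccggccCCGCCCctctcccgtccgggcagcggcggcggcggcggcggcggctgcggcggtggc
The Asxl1 window was 54.0% G and C with 13 CpG dinucleotides, close to the median of 52.7% and above the median of 7 over all 32851 windows in the table. Asxl2 had 67.0% and 36 CpG, Mbd5 67.0% and 19, and Mbd6 74.0% and 28. In the Asxl1 window ACTACAA, found in 3.24% of all windows, began at position -75 from the start, and AAGATGG, found in 6.34%, stood on the other strand. CCGGAAG, found in 8.86% of windows, was present for Asxl1, Asxl2 and Mbd5, and GGGCGG, found in 35.7%, in all 4. The Mbd6 window also held CCAAT, found in 37.4%. Neither GTAAACA (3.65% of windows) nor TGACGTCA (1.79%) was in the window of any of the 8 members with an entry. These matches describe letters only.

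Ogt, Bap1, Foxk2 and Hcfc1 were the most abundant members when counts were divided by exon length. In TPM, the length-scaled share of a gene in its library (merged exon lengths of GENCODE vM21), Bap1 averaged 121 ± 3.02 in the hindbrain-rich libraries (SD, n = 8) and 134 ± 8.22 in the others (SD, n = 16). Ogt averaged 130.3 ± 12.2 TPM in the hindbrain-rich libraries and 116 ± 7.81 TPM in the others. Foxk2 averaged 104 ± 10.4 TPM in the hindbrain-rich libraries and 114 ± 8.96 TPM in the others, and Hcfc1 96.0 ± 11.3 TPM in the hindbrain-rich libraries and 85.0 ± 6.02 TPM in the others. In each class neighbours in this order overlapped in range. Mbd6, Asxl1 and Foxk1 lay in the middle, below every value of those 4 genes. Foxk1 overlapped both of the others in each class, while Mbd6 and Asxl1 overlapped in the 16 others but not in the hindbrain-rich libraries, where every Mbd6 value was higher. Mbd6 averaged 49.4 ± 10.5 TPM in the hindbrain-rich libraries and 31.4 ± 3.46 TPM in the others, Asxl1 34.6 ± 0.808 TPM in the hindbrain-rich libraries and 35.7 ± 2.29 TPM in the others, and Foxk1 34.9 ± 3.80 TPM in the hindbrain-rich libraries and 40.2 ± 4.99 TPM in the others. Mbd5 was lower, at 16.3 ± 1.69 TPM in the hindbrain-rich libraries and 19.1 ± 1.46 TPM in the others, followed by Asxl2 at 13.1 ± 1.49 TPM in the hindbrain-rich libraries and 9.45 ± 0.676 TPM in the others. The ranges of Mbd5 and Asxl2 overlapped in the hindbrain-rich libraries but not in the others. Asxl3 was lowest at 3.49 ± 0.401 TPM in the hindbrain-rich libraries and 4.25 ± 0.527 TPM in the others. Of the summed TPM of the 3 Asxl genes, Asxl1 made up 67.6% in the hindbrain-rich libraries and 72.2% in the others, Asxl2 25.5% in the hindbrain-rich libraries and 19.1% in the others, and Asxl3 6.82% in the hindbrain-rich libraries and 8.60% in the others. The merged exons of all annotated transcripts span 7444 bases for Asxl1, 15941 for Asxl2 and 15533 for Asxl3. The shares and the order of genes in TPM depend on such lengths, and which transcripts were expressed was not tested. TPM were scaled to library totals without TMM, so that they rank genes within a library and are not used for fold changes.

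Between the hindbrain-rich and the other libraries, the members of the complex did not move together. Mbd6 and Asxl2 were higher in the hindbrain-rich libraries, Asxl3, Mbd5, Foxk1, Foxk2, Bap1 and Asxl1 were lower, and Hcfc1 and Ogt did not pass the test. These 8 of 10 called stand beside 57.3% of all genes tested (30.1% higher and 27.3% lower), so that a called member is no more than what most genes of the table showed. The median log2 fold change of the 10 was -0.22, against 0.04 over all genes tested. All p-values for single genes are from edgeR's quasi-likelihood test with Benjamini-Hochberg adjustment over all 20437 genes, called at an adjusted p under 0.05, and fold changes are on the log2 scale with their standard error (SE).

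**Figure D1:**
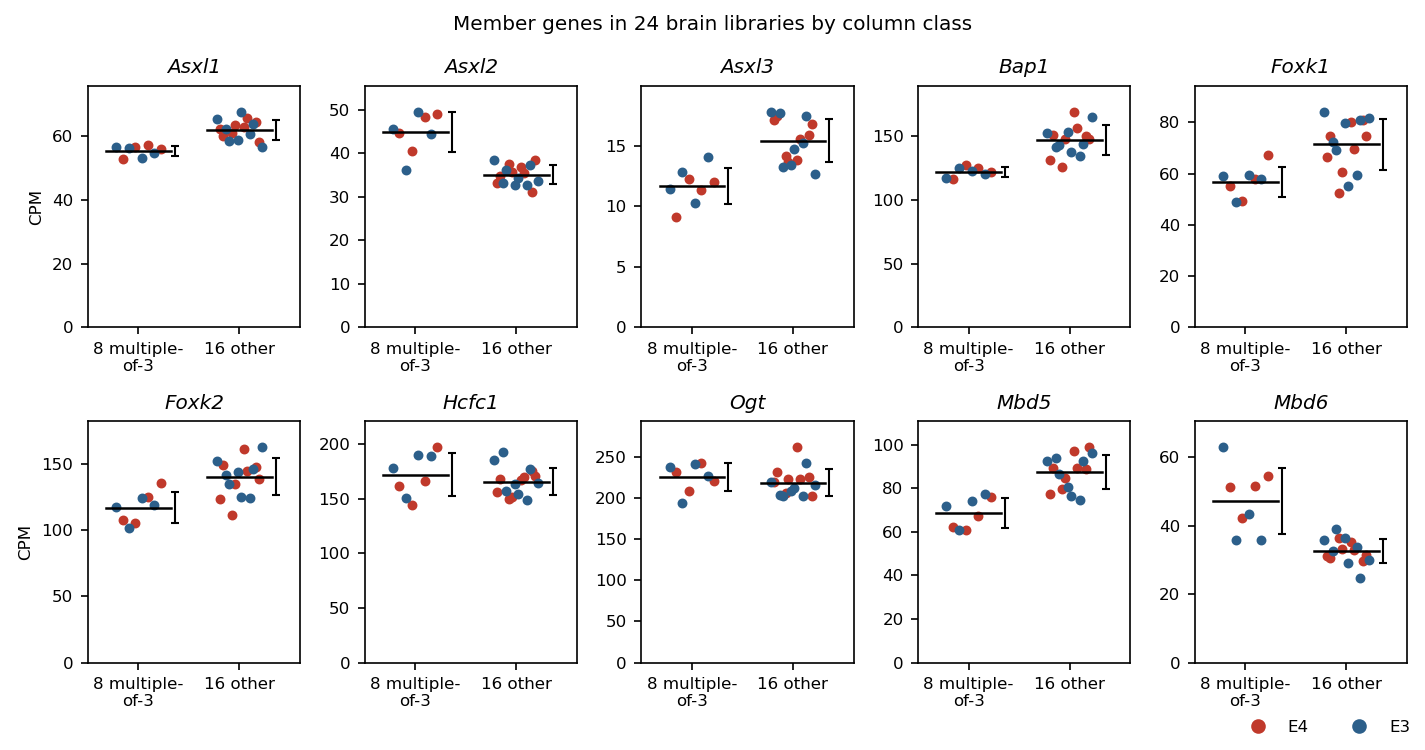
CPM of the 10 members in each of the 24 libraries, hindbrain-rich (8 multiple-of-3 columns) left of the other 16, with E4 in red and E3 in blue. Horizontal lines are class means and the bars beside them 1 SD; Asxl2 and Mbd6 sit higher in the hindbrain-rich libraries, 6 members sit lower, and in no member are the classes fully apart.

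Among the ASXL genes the 3 relatives differed in direction. Asxl1 lay at 52.8 to 57.1 CPM with a median of 56.1 in the hindbrain-rich libraries, against 56.7 to 67.6 CPM with a median of 62.1 in the others. It was lower in the hindbrain-rich libraries by a log2 fold change of -0.16 (SE 0.04, adjusted p = 0.000684), with 15 of the 16 others above the highest of the 8. Asxl2 lay at 36.1 to 49.6 CPM with a median of 45.1 in the hindbrain-rich libraries, against 31.2 to 38.6 CPM with a median of 35.2 in the others. It was higher, with a log2 fold change of 0.35 (SE 0.06, adjusted p = 1.37e-05), and 10 of the 16 others lay below the lowest of the 8, which was E3-10 1. Asxl3 lay at 9.11 to 14.1 CPM with a median of 11.7 in the hindbrain-rich libraries, against 12.6 to 17.8 CPM with a median of 15.4 in the others. Its log2 fold change was -0.39 (SE 0.08, adjusted p = 0.000443), and 11 of the 16 others lay above the highest of the 8. In bulk tissue, fewer cells of a type and less RNA per cell cannot be told apart.

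Bap1, the catalytic subunit, and both Foxk genes were lower in the hindbrain-rich libraries. Bap1 lay at 116 to 127 CPM with a median of 122 there, against 126 to 169 CPM with a median of 148 in the others. The 8 values were close together (coefficient of variation 3.23%, against 7.87% in the others), the log2 fold change was -0.27 (SE 0.04, adjusted p = 2.12e-05), and 15 of the 16 others lay above all 8. Foxk1 lay at 48.8 to 67.2 CPM with a median of 57.9 in the hindbrain-rich libraries, against 52.4 to 84.1 CPM with a median of 73.5 in the others. Its log2 fold change of -0.34 (SE 0.08, adjusted p = 0.00126) was accompanied by more overlap, with 11 of 16 others above the 8. Foxk2 lay at 102 to 136 CPM with a median of 118 in the hindbrain-rich libraries, against 112 to 163 CPM with a median of 143 in the others, and changed by -0.27 (SE 0.06, adjusted p = 0.000964), with 10 of 16 others above the 8. The enzyme and its 2 DNA-binding partners thus had log2 fold changes between -0.34 and -0.27. Such sizes were ordinary here, since the median absolute log2 fold change over all genes tested was 0.35. Mbd5 (-0.34) and Asxl3 (-0.39) were also lower.

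Hcfc1 and Ogt, which serve many complexes besides this one, showed the smallest differences between the classes. Hcfc1 lay at 144 to 198 CPM with a median of 172 in the hindbrain-rich libraries, against 149 to 193 CPM with a median of 166 in the others. Its log2 fold change was 0.05 (SE 0.06, adjusted p = 0.503), with a 95% interval of -0.07 to 0.16. Ogt lay at 193 to 242 CPM with a median of 229 in the hindbrain-rich libraries, against 202 to 262 CPM with a median of 217 in the others. Its log2 fold change was also 0.05 (SE 0.05, adjusted p = 0.398), with an interval of -0.06 to 0.17. The ranges of both genes overlapped almost fully.

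Mbd5 and Mbd6, the alternative methyl-CpG-binding domain subunits, went in opposite directions. Mbd5 lay at 60.7 to 77.2 CPM with a median of 69.5 in the hindbrain-rich libraries, against 74.6 to 98.8 CPM with a median of 89.0 in the others. Its log2 fold change was -0.34 (SE 0.06, adjusted p = 3.2e-05), and 14 of the 16 others lay above all 8. Mbd6 lay at 35.7 to 63.0 CPM with a median of 47.4 in the hindbrain-rich libraries, against 24.6 to 38.9 CPM with a median of 32.7 in the others. It had the largest fold change of the 10, at 0.53 (SE 0.08, adjusted p = 5.31e-06), with 12 of the 16 others below all 8. Its 8 values were also the most spread, with a coefficient of variation of 20.3% against 10.8% in the others. E3-15 3 and E3-10 1 were the lowest of the 8, at 35.7 and 35.8 CPM, within the range of the others.

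None of the 10 members had classes whose CPM did not overlap, whereas 13.7% of all genes tested did. Scaling to total counts alone moved the median log2 fold change of all genes from 0.04 to 0.14, with 39.1% of genes then higher and 21.1% lower. Under it, Asxl1 was at -0.06 and no longer called, while Hcfc1 (0.15) and Ogt (0.16) were called as higher, so that the size and the call of small differences here depend on the scaling, while no member changed direction in this comparison. The regions the 8 libraries hold differed in other cell markers as well: all 8 microglia genes were lower (mean 3.56 to 4.17 log2 CPM in the hindbrain-rich libraries, 4.55 to 5.03 in the others, summing to 141 to 217 CPM in the hindbrain-rich libraries against 269.7 to 404 CPM in the others), and of 7 astrocyte genes 4 were higher and 1 lower (mean 8.59 to 8.94 log2 CPM in the hindbrain-rich libraries and 8.04 to 8.63 in the others, summing to 4039 to 5432 CPM in the hindbrain-rich libraries against 3603 to 5690 CPM in the others). Of 6 choroid plexus genes 3 were higher (summing to 346 to 2912 CPM in the hindbrain-rich libraries against 20.1 to 1067 CPM in the others), and of 5 red cell genes 3 were higher (10.6 to 280.1 CPM in the hindbrain-rich libraries against 6.06 to 284 CPM in the others). Of 5 pituitary genes 1 was higher, of 6 thalamus genes 1 was higher and 2 lower, of 8 pan-neuronal genes 2 were higher and 3 lower, of 6 endothelial and mural genes 1 was lower, and of 7 oligodendrocyte genes 0 were called. These marker calls are from the fit with TMM scaling, beside 57.3% of all genes called (30.1% higher and 27.3% lower). A called marker is thus in itself no more than what most genes showed. The part of these markers in the members' differences was not tested.

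**Figure D2:**
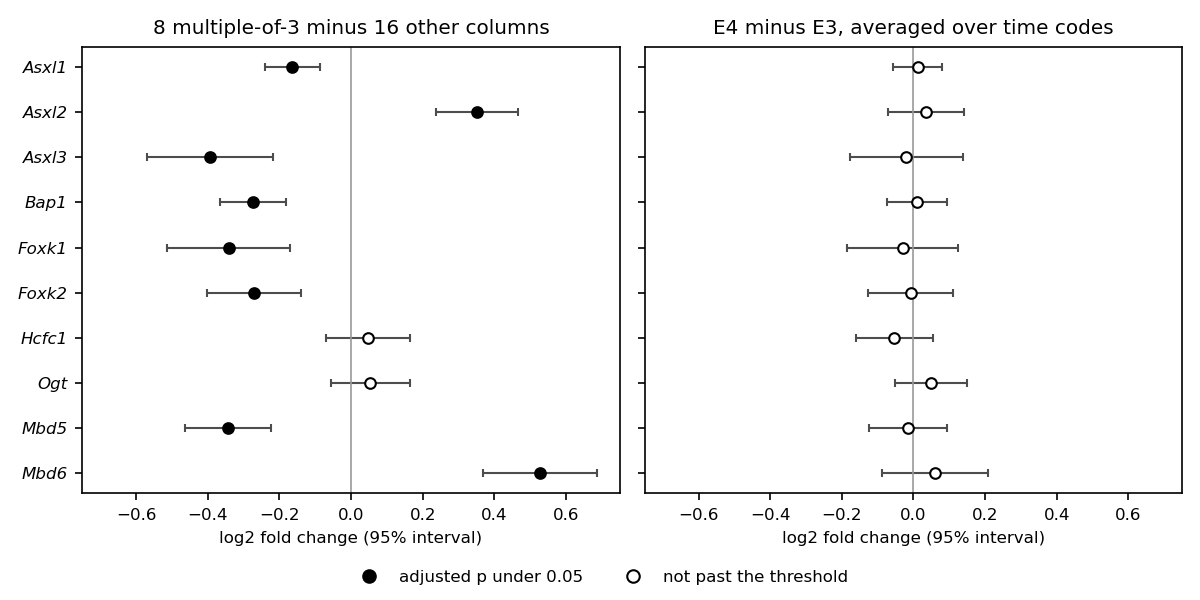
Log2 fold changes of the 10 members with 95% intervals, for the hindbrain-rich minus the other libraries (left panel) and for E4 minus E3 averaged over time codes (right panel). Filled points passed an adjusted p under 0.05: 8 members on the left, 0 on the right.

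Ratios of 2 members within a library do not depend on the scaling, and 4 ratios of related genes were tested in 2 comparisons by an exact two-sided permutation test within strata, adjusted over the 8 tests. The log2 ratio of Asxl2 to Asxl1 counts averaged -0.31 ± 0.17 in the hindbrain-rich libraries (SD, n = 8) and -0.82 ± 0.12 in the others (SD, n = 16), a difference within groups of 0.51 (exact permutation p = 0.000109, the smallest the 9216 permutations can give, adjusted p = 0.000434). Only E3-10 1, at -0.64, reached into the range of the others, which ended at -0.59. Among the 8, E3-10 1 was also the lowest in the mean over the cerebellum and hindbrain genes, at 6.24 log2 CPM, and in Gabra6, at 85.5 CPM. The part of tissue content in its values was not tested. The log2 ratio of Mbd5 to Mbd6 averaged 0.56 ± 0.30 in the hindbrain-rich libraries and 1.42 ± 0.22 in the others, a difference of -0.87 (exact permutation p = 0.000109, adjusted p = 0.000434). Here the classes did not overlap, with 0.19 to 1.11 in the hindbrain-rich libraries and 1.13 to 1.91 in the others. Relative to its paralog, each of Asxl2 and Mbd6 was thus higher in the hindbrain-rich libraries, a difference that library scaling does not touch.

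The ratio of Asxl3 to Asxl1 was lower in the hindbrain-rich libraries, at -2.26 ± 0.17 there against -2.01 ± 0.16 in the others, with a difference of -0.24 (exact permutation p = 0.00575, adjusted p = 0.0153). This call ended without E4-05 3 (difference -0.17, adjusted p = 0.0961) or without E3-05 2 (-0.22, adjusted p = 0.0532). The ratio of Foxk1 to Foxk2 did not pass the test, at -1.04 ± 0.05 in the hindbrain-rich libraries and -0.98 ± 0.11 in the others (difference -0.06, over 1 SD of the 8 and under 1 SD of the 16, exact permutation p = 0.15, adjusted p = 0.301).

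**Figure D3:**
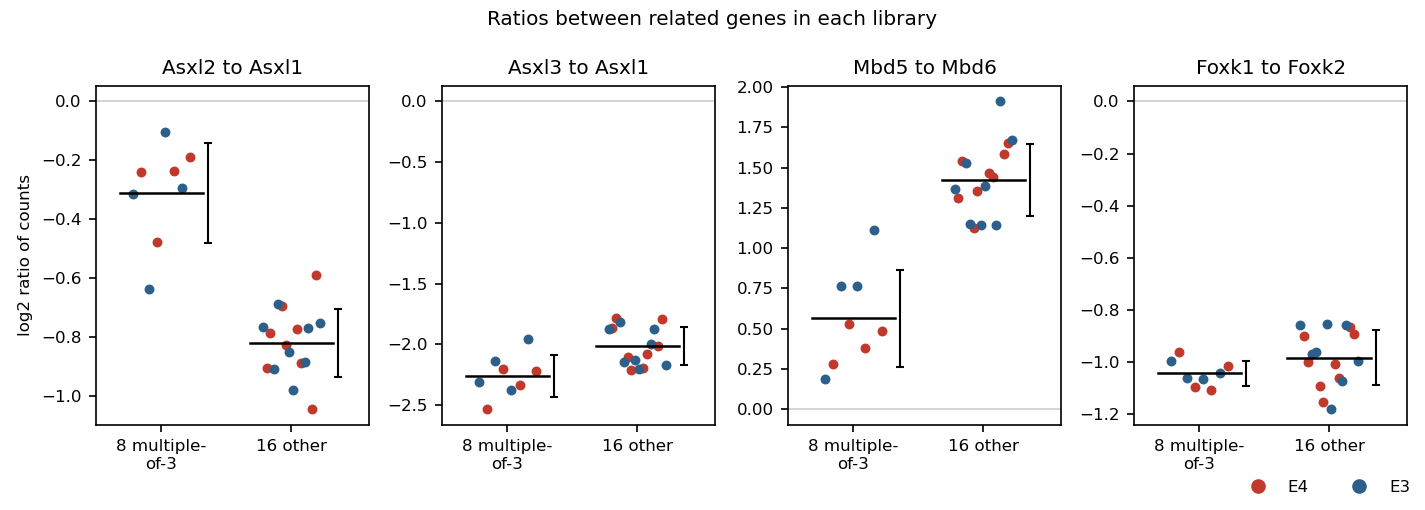
Log2 ratio of the counts of 2 related members in each library, hindbrain-rich (8 multiple-of-3 columns) left of the other 16, with E4 in red and E3 in blue; lines are means and bars 1 SD. Asxl2 to Asxl1 is higher and Mbd5 to Mbd6 lower in the hindbrain-rich libraries, while Foxk1 to Foxk2 overlaps.

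Within the 16 other libraries, Bap1 and the Foxk genes were higher where the telencephalon genes were higher, and no such relation passed the test for the Asxl genes. The telencephalon list ran from 4.81 to 6.77 log2 CPM in these 16, with a median of 5.95. Bap1 correlated with it at Pearson's r = 0.84 (permutation p = 1e-05, the smallest 100000 permutations can give, adjusted over 10 members 0.0001; Spearman's rho = 0.83, p = 9e-05), and it was 126 CPM in E4-05 4, the library lowest in the list, and 169 CPM in E4-10 3, the highest. Foxk2 gave r = 0.81 (permutation p = 0.00011, adjusted p = 0.00055, rho = 0.71, p = 0.00284) and Foxk1 r = 0.70 (permutation p = 0.00242, adjusted p = 0.00807, rho = 0.66, p = 0.00648). Mbd5 reached r = 0.57 (permutation p = 0.0202, adjusted p = 0.0506) and rho = 0.59 (permutation p = 0.0185, adjusted over 10 members 0.0463). With scaling to total counts its r was 0.42 (adjusted permutation p = 0.259), so that whether Mbd5 passed depended on the measure. Hcfc1, Ogt and Mbd6 lay at r = 0.46, 0.39 and 0.13. Asxl1, Asxl2 and Asxl3 lay at -0.00213, -0.0401 and 0.015, with adjusted permutation p = 0.994 for each.

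Of all genes tested, 2.66% had a correlation with the list at least as strong as that of Bap1, 4.54% as that of Foxk2 and 12.3% as that of Foxk1. Without E4-05 4 and E4-10 3, the 2 libraries farthest from the list's median, r was 0.70 for Bap1, 0.62 for Foxk2 and 0.53 for Foxk1 in 14 libraries (permutation p = 0.00505, 0.0171 and 0.0523, adjusted p = 0.0505, 0.0856 and 0.174), so that after adjustment the relations rest in part on those 2. In columns that leave a remainder of 1 on division by 3, r was 0.89 for Bap1, 0.60 for Foxk2 and 0.43 for Foxk1 (n = 8), and in those with a remainder of 2 it was 0.89, 0.92 and 0.88 (n = 8). Between these 2 sets of columns, 0 of 10 members and 0.0% of all genes differed. The list was picked for this comparison after the data were seen. Other lists differed along the same libraries. The mean over 6 thalamus genes was 7.79 log2 CPM in E4-05 4 and 4.52 in E4-10 3. Over 8 pan-neuronal genes it was 9.32 in E4-05 4 and 9.60 in E4-10 3. The relation of the members to these lists was not tested, so that the correlations are not shown to be particular to telencephalon genes.

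**Figure D4:**
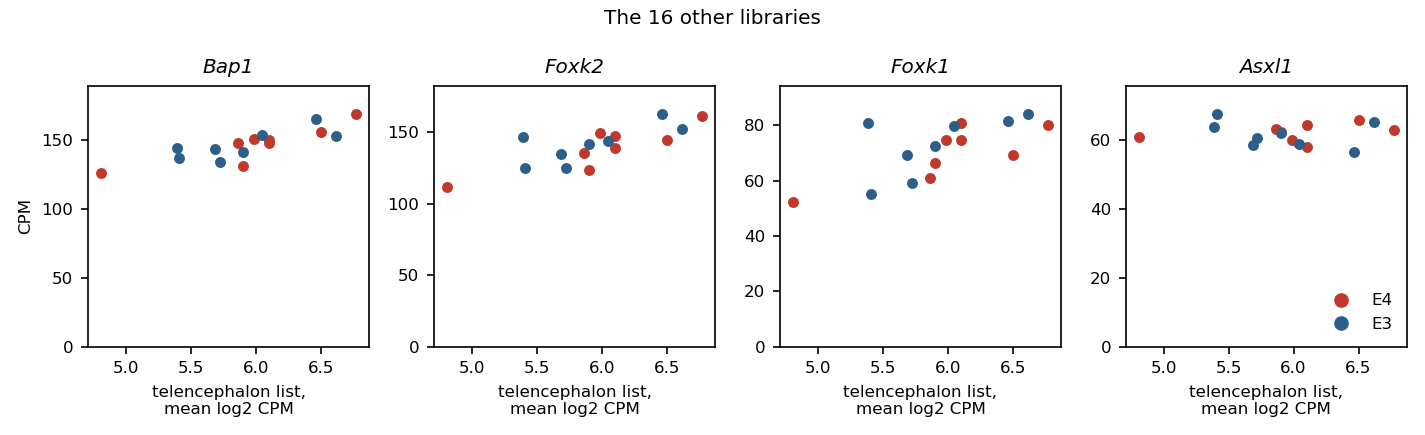
CPM of Bap1, Foxk2, Foxk1 and Asxl1 in the 16 other libraries against the mean log2 CPM of 11 telencephalon genes, 1 point per library, with E4 in red and E3 in blue. Bap1 climbs with the list from 126 CPM in the library at 4.81 to 169 CPM in the library at 6.77, and Asxl1 has r = -0.00213.

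Across the same 16 libraries, the members closest to each other were Bap1 and Foxk2, with r = 0.94, followed by Foxk1 and Foxk2 at 0.89. These are descriptions of libraries that share a region gradient and a scaling. Since Bap1 and Foxk2 moved together, their promoter windows are shown with the same marking of letters, from chr14:31251239-31251538 (plus strand) for Bap1 and chr11:121259737-121260036 (plus strand) for Foxk2, again on GRCm38.p6 from RefSeq.
Bap1: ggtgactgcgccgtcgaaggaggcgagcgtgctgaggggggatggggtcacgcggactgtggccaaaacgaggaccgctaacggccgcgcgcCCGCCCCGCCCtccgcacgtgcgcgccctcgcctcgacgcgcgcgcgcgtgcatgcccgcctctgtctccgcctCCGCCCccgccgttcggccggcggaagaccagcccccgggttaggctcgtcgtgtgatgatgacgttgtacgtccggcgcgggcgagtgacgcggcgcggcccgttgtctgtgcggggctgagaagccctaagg
Foxk2: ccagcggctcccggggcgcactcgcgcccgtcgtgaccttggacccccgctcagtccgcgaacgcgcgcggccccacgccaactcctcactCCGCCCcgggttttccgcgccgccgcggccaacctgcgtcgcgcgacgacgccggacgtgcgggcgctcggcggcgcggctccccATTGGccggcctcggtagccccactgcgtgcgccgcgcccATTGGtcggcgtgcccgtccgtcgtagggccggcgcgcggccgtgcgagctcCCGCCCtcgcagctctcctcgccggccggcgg
The Bap1 window was 73.7% G and C with 50 CpG, and the Foxk2 window 79.3% with 59. Both held GGGCGG on the other strand, 3 times for Bap1 with 2 matches sharing a base and 2 times for Foxk2. Foxk2 also held CCAAT on the other strand 2 times, and Bap1 did not hold it.

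No difference between E4 and E3 libraries passed the test in any member. At time code 05, Asxl1 was at 62.2, 60.1, 52.8 and 60.9 CPM in E4 and at 65.3, 56.7, 62.1 and 58.5 CPM in E3. At time code 10 it was at 63.3, 56.5, 63.0 and 65.7 CPM in E4 and at 56.2, 58.8, 67.6 and 53.3 CPM in E3. At time code 15 it was at 57.1, 64.4, 58.1 and 55.9 CPM in E4 and at 60.6, 63.8, 54.7 and 56.7 CPM in E3. The groups overlapped at each time code, and the lowest values in each group were those of its hindbrain-rich libraries. Averaged over time codes, the log2 fold change of Asxl1, E4 minus E3, was 0.01 (SE 0.03, adjusted p = 1.0), with a 95% interval of -0.06 to 0.08.

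Bap1 was at 131, 151, 116 and 126 CPM in E4-05, against 153, 117, 142 and 143 CPM in E3-05. At time code 10 it was at 148, 127, 169 and 156 CPM in E4 and at 125, 153, 137 and 123 CPM in E3, and at 15 it was at 125, 150.3, 148 and 122 CPM in E4 and at 134, 144, 120.1 and 165 CPM in E3. Each pair of groups overlapped, and the averaged log2 fold change was 0.01 (SE 0.04, 95% interval -0.07 to 0.09). Over the 10 members the averaged fold changes ran from -0.05 for Hcfc1 to 0.06 for Mbd6, with 5 above and 5 below 0 and a median of 0.00, against -0.00 over all genes. This average joins time codes of unlike sign. At 05, 9 members lay below 0 and 1 above (median -0.11, against 0.00 over all genes). At 10, 9 lay above and 1 below (0.06, against -0.00), and at 15, 8 above and 2 below (0.05, against 0.00). The members come from the same libraries, and these signs were not tested.

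No member was called at time code 05, at 10, at 15 or on average, where edgeR called 0.0%, 0.00979%, 0.0% and 0.0% of all genes. At an unadjusted p under 0.05 the members' count was also 0 in each, beside 2.62%, 4.9%, 1.87% and 2.64% of all genes. DESeq2 and limma-voom called 0 members in these 4 comparisons too, and at time code 10 they called 0.161% and 0.0196% of all genes. The largest single difference was that of Mbd6 at 15, with 51.5, 29.6, 31.4 and 54.5 CPM in E4-15 and 33.8, 24.6, 35.7 and 30.1 CPM in E3-15. Its high values, 51.5 and 54.5, were the 2 hindbrain-rich libraries of E4-15, and the fold change by edgeR with the class in the fit was 0.25 (SE 0.13, unadjusted p = 0.0599, adjusted p = 1.0). The test of whether the E4 minus E3 difference itself differed between the hindbrain-rich and the other libraries called no member (0 called beside 0.0% of all genes, 0 unadjusted beside 4.11%), and that interaction ran from -0.21 for Asxl3 (95% interval -0.55 to 0.13) to 0.17 for Mbd6 (-0.15 to 0.49).

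**Figure D5:**
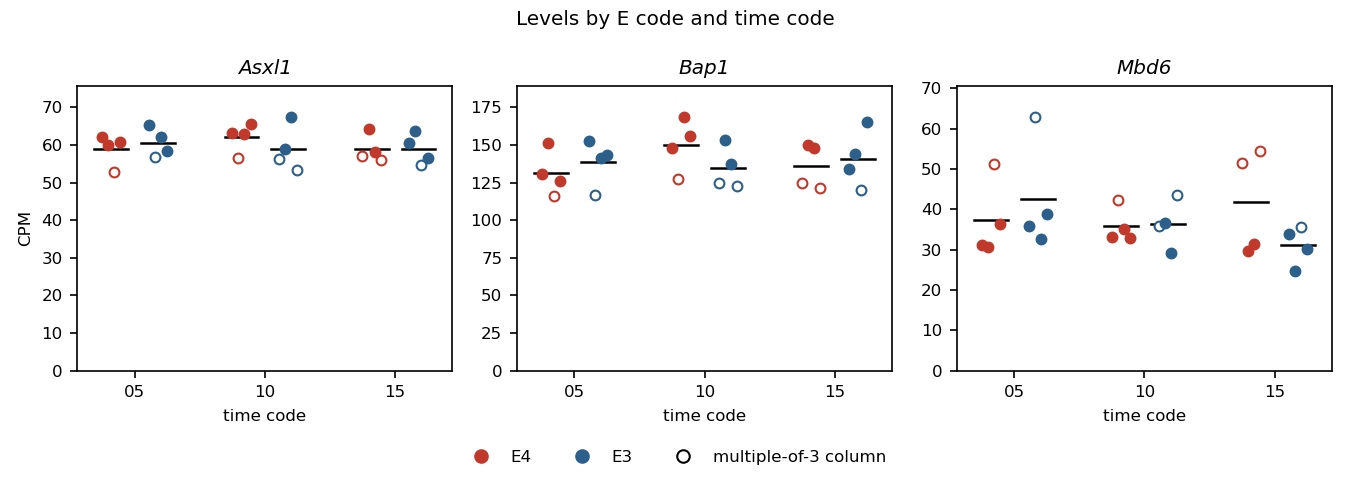
CPM of Asxl1, Bap1 and Mbd6 by time code, E4 (red) left of E3 (blue), 4 libraries per group; open circles are hindbrain-rich libraries and lines are group means. The E4 and E3 values overlap at each time code, and the open circles lie lowest in each group for Asxl1 and Bap1 and mostly highest for Mbd6.

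No difference between time codes passed the threshold in a member either. Each month in the titles belongs to 1 time code, with January and February at 05, March and April at 10, and May and June at 15, so that month and time code cannot be told apart. E4 and E3 libraries share the months. No member was called for 10 minus 05, 15 minus 10 or 15 minus 05, where edgeR called 0.0%, 0.00489% and 0.0% of all genes. At an unadjusted p under 0.05 there was 1 member for 10 minus 05, namely Bap1 by edgeR's quasi-likelihood test with a log2 fold change of 0.11 (SE 0.05, adjusted p = 0.999), beside 3.92% of all genes. For 15 minus 10 there were 0 members beside 7.67%, and for 15 minus 05 there was 1 by edgeR, Mbd6 at -0.20 (SE 0.09, adjusted p = 0.962), beside 4.47%. Neither is a call. Of 5 red cell genes 0 were called by edgeR, but all 5 had a negative log2 fold change at an unadjusted p under 0.05 for 10 minus 05 (median -2.87) and for 15 minus 05 (-2.97), and their part in the members' values was not tested.

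Within E4, 15 minus 05 gave 1 member by edgeR at an unadjusted p under 0.05, Foxk2 at 0.22 (SE 0.10, adjusted p = 0.826), beside 5.47% of all genes. Within E3 it gave Mbd6, at 33.8, 24.6, 35.7 and 30.1 CPM in E3-15 against 35.9, 63.0, 32.5 and 38.9 CPM in E3-05. The hindbrain-rich library of each group was its highest. The change fitted by edgeR was -0.42 (SE 0.12, unadjusted p = 0.00289, adjusted p = 0.9997), and 2.62% of all genes had an unadjusted p under 0.05. The edgeR test of the difference between the E codes in this change gave 0.43 for Mbd6 (SE 0.18, adjusted p = 0.994), the only member at an unadjusted p under 0.05, beside 2.67% of all genes. For that difference 9 members lay above 0 and 1 below, with a median of 0.15 against 0.00 over all genes. With adjustment, 0 members and 0.0% of all genes were called in these 3 comparisons. DESeq2 called 0 members in all of the time comparisons, beside 0.0881% of all genes for 10 minus 05 and for 15 minus 10, 0.176% for 15 minus 05, 0.0245% within E4 and 0.0294% within E3. limma-voom likewise called 0 members, beside 0.00489% for 15 minus 10.

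None of the 4 ratios of related members passed the test between E4 and E3. The differences, E4 minus E3 within time code and column class, were -0.02 for Asxl3 to Asxl1, 0.02 for Asxl2 to Asxl1, -0.01 for Foxk1 to Foxk2 and -0.06 for Mbd5 to Mbd6 (exact permutation tests over 36000 permutations, adjusted p = 0.791 for each).

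Genes that work with or against the complex were counted as lists, and their counts stand beside the 57.3% of all genes called in this comparison. Of 13 genes of PRC1, the enzyme complex that ubiquitinates histone H2A, 3 were higher and 6 lower in the hindbrain-rich libraries, beside 30.1% higher and 27.3% lower of all genes, with a median log2 fold change of -0.00 against 0.04 over all genes. Pcgf6, a subunit of a variant PRC1, was higher by 0.70 (SE 0.09, adjusted p = 1.48e-06), and Yaf2 (-0.42), Rybp (-0.34) and Pcgf3 (-0.41), also of variant PRC1, were lower. Of 8 other histone deubiquitinases, 3 were higher and 3 lower with a median of 0.20, so that in both lists most genes were called, as in the whole table, and Usp3 stood at 1.25 (SE 0.12, adjusted p = 4.41e-08), Usp16 at 0.45, Mysm1 at 0.38 and Usp22, of the SAGA complex, at -0.35.

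Of 6 genes of O-GlcNAc cycling, 2 were higher and 3 lower, again beside 57.3% of all genes called. Gfpt2, which makes the sugar donor's precursor, stood at -1.03 (SE 0.09, adjusted p = 4.32e-09), and Oga, which removes the modification that Ogt adds, at -0.41 (SE 0.05, adjusted p = 2.58e-07), while Uap1 stood at -0.32 and Gnpnat1 at 0.38. Of 12 partners of HCF-1, 4 were higher and 2 lower, with Zfp143 at 0.42, Setd1a at 0.22, Rbbp5 at 0.20 and Kmt2a at 0.25. Of 8 partners and regulators of BAP1, 2 were higher and 2 lower, namely Kdm1b at 0.29, Ino80 at 0.24, Rbbp7 at -0.28 and Ube2o at -0.19. Of 5 other genes of the methyl-CpG-binding domain family, Mbd4, a DNA repair glycosylase, stood at 0.61 and Mbd3 at -0.16, and 3 were not called. Among the partners of HCF-1 and of BAP1 and the genes of the methyl-CpG-binding domain family, the share called was below that of all genes. In every other comparison, 0 genes of these lists were called by edgeR.

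The genes of the series title were measured beside Asxl1. Nr1h3, the liver X receptor alpha, was at 4.97 to 7.95 CPM in the hindbrain-rich libraries and at 2.30 to 3.73 CPM in the others, a log2 fold change of 1.09 (SE 0.09, adjusted p = 4.03e-09), opposite to that of Asxl1. Nr1h2 stood at 0.23 (SE 0.04, adjusted p = 9.54e-05) and Apoe at -0.23 (SE 0.05, adjusted p = 0.00102). For E4 minus E3 on average, edgeR gave -0.06 for Nr1h3, -0.11 for Nr1h2 and -0.05 for Apoe, each with an adjusted p = 1.0. Of these 3 genes, 1 had an unadjusted p under 0.05, beside 2.64% of all genes. At time code 10 all 3 lay below 0, from -0.22 to -0.15, with 1 at an unadjusted p under 0.05 beside 4.9% (smallest edgeR adjusted p = 0.697). All 3 were also below 0 at 05, but 2 were above 0 at 15, and 0 were called at any time code.

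The genes most alike to 3 members were found among 15085 genes by the correlation of log2 CPM over 20 libraries, after subtracting the mean of each group and column class. Libraries alone in their group and class were left out. For each member the 4 highest of 15085 correlations are named, so that the picking itself raises these r, and none was tested. For Asxl1 they were Acp2 (r = 0.88), Srp72 (0.85), Cops3 (0.84) and Tsg101 (0.84). For Asxl3 they were Grid1 (r = 0.91), Ostm1 (0.89), Scn3b (0.85) and Zfp273 (0.81). For Bap1 they were Drp2 (r = 0.96), Camk2n1 (0.96), Galt (0.96) and Kctd16 (0.96), and none of the other 9 members was among these names.

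Asxl1, Asxl2 and Mbd5 share exon bases with a gene on the opposite strand in GENCODE vM21, namely 197 bases with 2500004C02Rik (2.65% of the Asxl1 exon bases), 155 bases with 1110002L01Rik (0.972%) and 136 bases with Orc4 (0.693%). The strand setting of the counting is not given in the sources used here, so that reads of those bases cannot be assigned to a strand.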

How the data were processed

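The data are polyadenylated RNA from mouse brain in 24 libraries, isolated with TRIzol and read on a NovaSeq instrument, per the labels' protocols. The deposited table gives unnormalized read counts, with 1 row for each gene symbol. HISAT2 2.1.0, featureCounts 2.0.6 and the build mm39 are named in the submitters' processing notes; gene annotation and strandedness of counting are not given in the sources used here. Columns are headed by numbers and were joined to libraries by the number in each label. Among low counts, 62.6% to 70.8% per library were even. Counting read pairs as 2 would give such an excess, and counts may then overstate fragments, but this was not tested. No 2 libraries were alike within sampling noise.

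Of 40836 genes, 20437 passed the low-count filter filterByExpr of edgeR, run over the 6 groups. In R 4.3.3 with edgeR 4.0.16, counts were scaled by TMM and fitted with 1 coefficient per group and 1 for column class (column number a multiple of 3), leaving 17 residual degrees of freedom. The class term lowered edgeR's common coefficient of variation to 22.5%, against 40.8% without it. Robust quasi-likelihood F tests were adjusted by Benjamini-Hochberg over all genes in each comparison. The standard error was taken as the log2 fold change over the root of F, and intervals are 95%. Log2 CPM used a prior count of 2. Ratios of counts (0.5 added to each) were tested by exact permutation, of column class within the 6 groups and of E code within time code and class. Correlations used 100000 permutations. The fit and the permutation tests were checked on simulated data. Alternatives were RLE, upper-quartile and total-count scaling, no filter, DESeq2 1.42.0, limma-voom (limma 3.58.1), no class term, 3 column classes, sets of 3 adjacent columns, the titled month as a term, a replicate block, libraries high in Gh or Hbb-bs left out, only the 16 other libraries, ratio pseudocounts of 0 and 5, and leaving out each library. The upper-quartile and total-count scalings, the month term and the correlations were added after the data were seen.

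The members and gene lists were chosen with earlier results of these data known. All members are named. Of other lists, up to 4 genes with the smallest p among those called are named per comparison, besides Apoe, Nr1h2, Nr1h3, Gabra6, Gh and Hbb-bs. For TPM, 73.7% of symbols, holding 98.2% of counts, matched 1 GENCODE vM21 gene. RefSeq promoter windows matched 8 of 10 members. The values of 1 further gene are not reported here.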

Additional observations from a re-analysis of the deposited data

How the results depend on the processing

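In the class comparison 8 members stayed called under every alternative, leave-one-out included, except under total counts, where 9 were called because Asxl1 (-0.06) fell out and Hcfc1 (0.15) and Ogt (0.16) came in. The counts of members called for E code, time code and the interactions stayed at 0 in all alternatives run, with DESeq2 and limma-voom among them. With the titled month as a further term, fitted for the class and E code comparisons, the class count was 8 and the E code counts 0. With the replicate block the class count stayed at 8 and the other counts at 0. Library numbers pair no samples by the labels. Libraries that share a number correlated at a median of -0.0149 after group and class means were removed (60 pairs, 15 over 0.1), against 0.0129 for those with different numbers (180 pairs), so that the block is given only here.

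The averaged E4 minus E3 values lay so near 0 that signs turned without any call. The total-count scaling gave 0.00759 for Foxk2 and 0.000934 for Mbd5, leaving out the libraries high in Gh gave -0.00191 for Asxl1, leaving out those high in Hbb-bs gave 0.0140 for Foxk2, and the 16 other libraries alone gave 0.0516 for Asxl3, 0.0527 for Mbd5 and -0.0120 for Mbd6. Leaving out 1 library at a time gave -0.0519 to 0.0137 for Asxl3, -0.00172 to 0.0319 for Bap1, -0.0579 to 0.00460 for Foxk1, -0.0286 to 0.0166 for Foxk2 and -0.0383 to 0.00622 for Mbd5. For the ratios it gave, E4 minus E3, -0.0134 to 0.0512 for Asxl2 to Asxl1, -0.0468 to 0.0200 for Asxl3 to Asxl1, -0.0319 to 0.0143 for Foxk1 to Foxk2 and -0.105 to 0.0187 for Mbd5 to Mbd6. In the class comparison Asxl3 to Asxl1 ran from -0.29 to -0.17, and its call ended without E4-05 3 or E3-05 2. The correlations of Bap1, Foxk2 and Foxk1 with the telencephalon list were 0.83, 0.81 and 0.64 under total counts (adjusted permutation p = 0.0008, 0.0008 and 0.0265), and their adjusted p exceeded 0.05 without the 2 libraries farthest from the median.

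The limits are those of bulk tissue in unequal regions. The class was read from column numbers, and the labels give no region, so that class, dissection and any unnamed handling cannot be told apart. With 4 libraries a group, the 95% interval of the E4 minus E3 log2 fold change at time code 05 was -0.16 to 0.08 for Asxl1 and -0.46 to 0.08 for Foxk1, and differences within such widths were not detectable. Differences beyond them could be missed too, since a call needed an adjusted p under 0.05 over all 20437 genes. Asxl3 had the fewest counts, from 394 per library.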
